A study of Mus musculus with 10 samples.

Results

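A set of 10 neutrophil genes was examined in dental mesenchyme taken from mouse lower incisors: S100a8, S100a9, Ngp, Camp, Ltf, Retnlg, Lcn2, Elane, Mpo and Csf3r. They were chosen by name, and a gene was counted as measured when a probe set of the array carried its symbol and no other in the supplied annotation. This held for 9 of the 10, out of 18193 genes measured in the series; each of the 9 has 1 probe set, and array values of Retnlg were not analysed here. The tissue came from wild-type C57BL/6J mice at postnatal day 60, of a sex the labels leave undetermined. In each of 5 mice the inferior alveolar nerve, which supplies the lower jaw teeth with sensory fibres, had been cut out on 1 side 2 weeks before. Incisors of that side form the denervated group (5 arrays) and incisors of the intact side the contralateral group (5 arrays). Both groups therefore come from operated animals, none of the samples is labelled as sham-operated, and nerve loss and surgery cannot be told apart. Arrays with equal numbers were treated as the 2 incisors of 1 mouse, called mouse 1 to mouse 5, which the labels do not state.

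Neutrophils are made in the bone marrow and load their granules in a fixed order as they mature. Primary granules, with neutrophil elastase (Elane) and myeloperoxidase (Mpo), are filled in the early promyelocyte. Secondary granules, with lactoferrin (Ltf), the cathelicidin Camp and the neutrophilic granule protein Ngp, are filled later, and Lcn2, a lipocalin that binds bacterial iron carriers, is stored with them. S100a8 and S100a9 encode the subunits of calprotectin, the calcium- and zinc-binding protein that fills much of the neutrophil cytosol. Csf3r encodes the receptor for granulocyte colony-stimulating factor, the main growth signal of the lineage. Some of these genes, among them S100a8, S100a9, Lcn2 and Ltf, can also be transcribed in epithelia, and calprotectin also in monocytes.

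S100a8 and S100a9 are adjacent protein-coding genes on chromosome 3 in the RefSeq table (GRCm38.p6), and Ngp, Camp and Ltf lie on chromosome 9, with 8 protein-coding genes between Ngp and Camp and 20 between Ngp and Ltf. The 250 bases before the start of S100a8, S100a9 and Ngp are shown because these 3 genes varied together over the arrays. They are RefSeq sequence of build GRCm38.p6, chr3:90668821-90669070 on the plus strand for S100a8, chr3:90695722-90695971 on the minus strand for S100a9 and chr9:110419558-110419807 on the plus strand for Ngp. Capitals mark a match, on either strand, to TTNNGCAA, a pattern of the C/EBP factors of granulocyte development, or to GAGGAAG, a pattern of the myeloid factor PU.1.
S100a8: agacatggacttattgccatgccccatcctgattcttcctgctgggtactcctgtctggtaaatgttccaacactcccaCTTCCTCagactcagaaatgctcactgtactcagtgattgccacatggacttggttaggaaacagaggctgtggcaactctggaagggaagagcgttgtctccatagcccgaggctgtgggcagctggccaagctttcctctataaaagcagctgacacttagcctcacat
S100a9: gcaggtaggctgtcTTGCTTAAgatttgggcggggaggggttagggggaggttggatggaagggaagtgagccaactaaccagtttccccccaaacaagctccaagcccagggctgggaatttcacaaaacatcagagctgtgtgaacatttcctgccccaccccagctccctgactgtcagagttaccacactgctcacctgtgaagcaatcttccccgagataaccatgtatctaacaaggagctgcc
Ngp: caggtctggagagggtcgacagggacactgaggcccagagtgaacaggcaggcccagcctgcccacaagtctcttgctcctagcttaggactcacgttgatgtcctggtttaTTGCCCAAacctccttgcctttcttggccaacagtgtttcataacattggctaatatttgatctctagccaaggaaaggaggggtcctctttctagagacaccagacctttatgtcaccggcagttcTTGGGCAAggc
In windows of 300 bases, which add the 50 bases after the start, TTNNGCAA was found for 5 of the 10 genes (S100a9, Ngp, Ltf, Retnlg and Lcn2) and in 10.8% of all 32851 promoter windows. GAGGAAG was found for S100a8, Lcn2, Elane, Mpo and Csf3r, which is also 5 of 10, and in 13.6% of all windows. The S100a8 window holds GAGGAAG at base -171 on the opposite strand, and the Ngp window holds TTNNGCAA at bases -138 and -11, counted back from the start site. Camp had neither pattern in its window. These matches describe the letters and are no evidence of binding in the incisor.

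The values are log2 intensities as deposited, with array medians between 1.48 and 1.54. For 40.7% of genes the mean of the 10 arrays fell short of 2, where the scale bottoms out. There is no detection call in the values, so that a level below about 2 is not told from background and differences there are compressed. Transcripts of the labelled tissue were present: 9 of 10 measured odontoblast and dental mesenchyme markers had a mean of at least 2, Barx1 being the exception, and Dspp, the dentin matrix gene, averaged 12.1 ± 0.14 on the denervated and 12.3 ± 0.08 on the contralateral side (SD, n = 5 each). Epithelial markers were present as well, at a mean of at least 4 for 11 of 11. Denervated arrays 2 and 3 stand apart from the rest in several cell type lists, as given below, and medians over gene lists that rest on them are also given without them.

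None of the 9 genes differed past the threshold between denervated and contralateral incisors. The calprotectin genes S100a8 and S100a9 and the granule gene Ngp varied over more than 4 log2 units among the 10 arrays, high in the denervated incisors of mice 2 and 3 and low in those of mice 1 and 4. Camp, Ltf and Lcn2 stood out in the denervated incisor of mouse 3 and were otherwise near the low end of the scale. Elane, Mpo and Csf3r stayed below 2 in all 10 arrays. By limma with Benjamini-Hochberg adjustment over 18193 genes, 0 of 9 had an adjusted p under 0.05, beside 0 of all genes (0%), and 0 of 9 had an unadjusted p under 0.05, beside 6.21% of all genes (9.92% with the mouse as a block, where again 0 of 9 did).

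S100a8 had log2 values of 3.01, 5.50, 6.89, 2.66 and 4.52 in the denervated incisors of mice 1 to 5, against 4.85, 3.64, 3.25, 3.49 and 4.63 in their contralateral incisors. The denervated values therefore included the 2 highest and the 2 lowest of the 10, and the contralateral values lay between them. The mean was 4.52 ± 1.75 for denervated and 3.97 ± 0.72 for contralateral incisors (SD, n = 5 each), a difference of 0.54 ± 0.72 (SE) with a 95% confidence interval from -1.04 to 2.13 and limma's adjusted p of 0.888. Its probe set carries the suffix by which the array maker marks probes that may match several transcripts.

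S100a9 had 2.60, 5.12, 6.48, 2.28 and 3.80 in the denervated incisors, against 4.31, 3.31, 2.62, 2.91 and 4.45 in the contralateral incisors. Its order of arrays was that of S100a8 apart from contralateral arrays 1 and 5, which changed places. The difference of the means was 0.54 ± 0.74 (interval -1.08 to 2.16, limma's adjusted p 0.890). After each gene was centred on its own mean, the profiles of S100a8 and S100a9 lay 0.15 log2 units apart (root mean square over the 10 arrays), against a range of 4.23 units for S100a8 and 4.20 for S100a9.

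Ngp, which encodes a cystatin-related protein of secondary granules, had 1.56, 3.55, 5.63, 1.48 and 2.14 on the denervated side and 2.68, 1.65, 1.77, 1.71 and 2.52 on the contralateral side. Its 5 highest arrays were those of S100a8, in the same order, with a distance of 0.39 to S100a8 and 0.39 to S100a9. The difference of the means was 0.81 ± 0.69, with an interval from -0.72 to 2.33 and limma's adjusted p of 0.831. Few genes varied as widely: 0.236%, 0.214% and 0.242% of all genes had a larger SD over the 10 arrays than S100a8, S100a9 and Ngp.

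**Figure D1:**
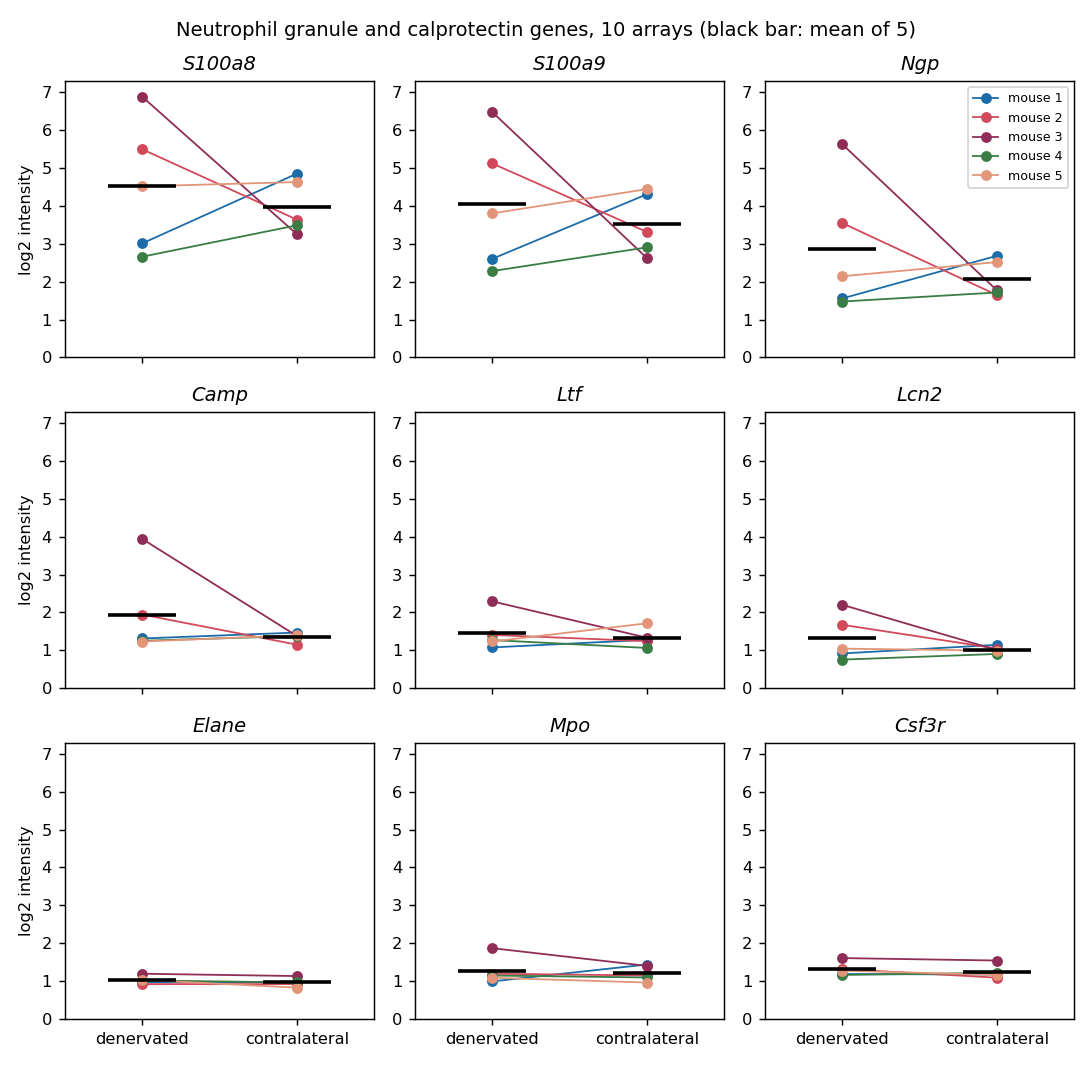
Log2 intensity (vertical axes) of the 9 measured genes in the denervated (left) and contralateral (right) incisor of each mouse; lines join the incisors of 1 mouse and black bars are means of 5 arrays. S100a8, S100a9 and Ngp reach 6.89, 6.48 and 5.63 in the denervated incisor of mouse 3, while Elane, Mpo and Csf3r lie below 2 throughout.

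The direction differed between mice. For S100a8 the within-mouse difference, denervated minus contralateral, was -1.84, 1.86, 3.63, -0.83 and -0.11 in mice 1 to 5. For S100a9 it was -1.71, 1.81, 3.86, -0.63 and -0.64. For Ngp it was -1.13, 1.90, 3.86, -0.24 and -0.37. Each of these 3 genes was thus higher in the denervated incisor in 2 of 5 mice and lower in 3 of 5. No gene among the 9 had the same direction in all 5 mice, where 6.58% of all genes were higher and 3.8% lower in 5 of 5. The 2 groups overlapped for 9 of 9 genes, where 0.528% of all genes were higher and 0.423% lower in the denervated incisors without overlap.

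Camp, the cathelicidin gene, had 1.31, 1.94, 3.94, 1.25 and 1.23 on the denervated side and 1.47, 1.15, 1.38, 1.38 and 1.40 on the contralateral side. Only denervated array 3 was above 2, and the other 9 arrays lay within 1.15 to 1.94. The difference was 0.58 ± 0.45 (interval -0.40 to 1.56, limma's adjusted p 0.822), and it was higher in 2 of 5 mice. Within mouse 3 it was 2.56 and within mouse 2 it was 0.80, against -0.16, -0.13 and -0.17 in mice 1, 4 and 5.

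Lcn2, the lipocalin gene, had 0.92, 1.67, 2.20, 0.75 and 1.04 on the denervated side and 1.14, 1.05, 1.01, 0.90 and 0.99 on the contralateral side. As for Camp, denervated arrays 3 and 2 were the highest. The difference was 0.30 ± 0.24 (interval -0.22 to 0.82), and it was higher in 3 of 5 mice. Ltf, the lactoferrin gene, had 1.08, 1.41, 2.29, 1.27 and 1.23 on the denervated side and 1.28, 1.24, 1.33, 1.06 and 1.71 on the contralateral side, a difference of 0.13 ± 0.21. Its second highest array was contralateral array 5, so its order beyond the top array did not follow that of S100a8.

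The primary granule genes and the growth factor receptor gene gave values that cannot be told from background. Elane ranged from 0.92 to 1.19 on the denervated side and from 0.83 to 1.13 on the contralateral side. Mpo ranged from 0.99 to 1.87 on the denervated side and from 0.96 to 1.44 on the contralateral side, and Csf3r from 1.16 to 1.61 on the denervated side and from 1.09 to 1.54 on the contralateral side. Their differences were 0.06 ± 0.08, 0.05 ± 0.16 and 0.07 ± 0.11 with limma's adjusted p of 0.884, 0.957 and 0.902. Denervated array 3 was the highest array for Elane, Mpo and Csf3r too, and so for 9 of the 9 genes, where it was the highest for 15.7% of all genes (denervated array 2 or 3 for 36.9%). Only 6 of the 9 reached 2 in that array. Elane and Csf3r were little above contralateral array 3, at 1.19 against 1.13 and 1.61 against 1.54.

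Over the 9 genes the median difference was 0.30 with 9 of 9 above 0, beside a median of 0.02 with 10158 of 18193 genes above 0. Denervated array 3 decided this median: it was -0.00 without that array, and -0.13 without denervated arrays 2 and 3. Without these 2 arrays the differences of S100a8, S100a9, Ngp and Camp were -0.58, -0.62, -0.34 and -0.09, and Elane alone remained above 0, at 0.04. In whole tissue, fewer cells of a type and less RNA per cell cannot be told apart. The intervals of S100a8, S100a9 and Ngp are over 3 log2 units wide and reach up to 2.13, 2.16 and 2.33, so a mean difference of that size lies within them.

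**Figure D2:**
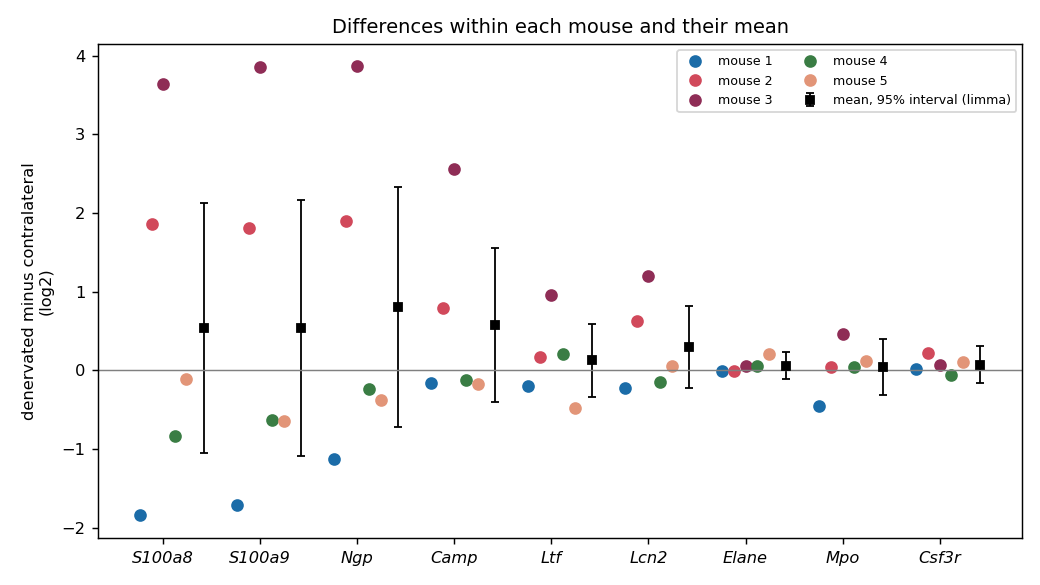
Difference between the denervated and the contralateral incisor on the log2 scale (vertical axis) for each gene, with 1 coloured point per mouse and, in black, limma's mean difference with its 95% confidence interval. Mice 2 and 3 lie above 0 and mice 1, 4 and 5 below 0 for S100a8, S100a9, Ngp and Camp, and all 9 intervals include 0.

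Other genes of the neutrophil were read from 3 lists. Of 8 measured genes of primary granules and progenitors, 7 were above 0, with a median of 0.08 (0.02 without denervated arrays 2 and 3) and 0 past the threshold, and 1 had a mean of at least 2. Ctsg (cathepsin G), Ms4a3 and Fcnb, which mark neutrophil progenitors, did not exceed 1.01, 0.83 and 0.88 in any array. The 3 with the highest mean intensity were Hk3, a hexokinase gene of myeloid cells, with a difference of 0.12 ± 0.08, Igsf6, a myeloid surface protein gene, with 0.53 ± 0.15 and limma's adjusted p of 0.790, and Prtn3 (proteinase 3) with 0.26 ± 0.16. Hk3, the gene with a mean of at least 2, has a dimmer probe set with a mean of 1.28 and a difference of 0.03. Igsf6 was higher in 5 of 5 mice, a direction that S100a8 and Ngp did not show.

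Of 16 measured genes of secondary and tertiary granules, 13 were above 0, with a median of 0.11 and 0 past the threshold, and 6 had a mean of at least 2. Denervated array 3 decided this median, which was 0.02 without it and -0.03 without denervated arrays 2 and 3, and it was 0.44 over the genes with a mean of at least 3. The collagenase gene Mmp8 stayed at or below 1.15 in every array. The 3 with the highest mean intensity, Anxa1 (annexin A1), Lyz2 (lysozyme) and Cyba, a subunit of the phagocyte oxidase, are made by many other cells too, and differed by -0.15 ± 0.13, 0.63 ± 0.19 and 0.44 ± 0.19. Chil3, a chitinase-like gene of neutrophils and macrophages that was chosen after its values were seen, had 0.82, 2.25, 3.95, 0.46 and 2.18 on the denervated side and 1.76, 1.38, 0.97, 1.10 and 2.08 on the contralateral side. Its array order resembled that of S100a8, with denervated array 3 highest and denervated array 4 lowest, and its difference was 0.47 ± 0.56.

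Of 19 measured genes of mature neutrophils, 11 were above 0, with a median of 0.04 and 0 past the threshold, and 6 had a mean of at least 2. The median was 0.01 without denervated array 3 and -0.06 without denervated arrays 2 and 3, and -0.10 over the genes with a mean of at least 3. The chemokine receptor gene Cxcr2 stayed at or below 1.28, Trem1 at or below 1.49 and Il1r2 at or below 1.11. The integrin gene Itgb2, which other leukocytes share, was above 2 in 7 arrays and differed by 0.52 ± 0.22, higher in 5 of 5 mice. The phagocyte oxidase gene Ncf1 was above 2 in 10 of 10 and differed by 0.35 ± 0.16. Both differences were largest in mice 2 and 3. In mice 1 to 5 they were 0.02, 0.98, 1.27, 0.13 and 0.19 for Itgb2 and -0.04, 0.59, 1.02, 0.15 and 0.01 for Ncf1. For both genes limma's adjusted p was 0.790. Of the 19 genes, 1 was higher and 1 lower in 5 of 5 mice, beside 6.58% and 3.8% of all genes. The lower one was Trem1, with a difference of -0.24 ± 0.09, and Stfa3 differed by -0.27 ± 0.07. Trem1 and Stfa3 stayed below 2 in every array, and limma's adjusted p was 0.790 for each. G0s2, a lipolysis inhibitor gene, differed by -0.34 ± 0.20, Mxd1, a MYC antagonist gene, by -0.10 ± 0.10 and Csf2rb, a cytokine receptor gene, by 0.35 ± 0.32. Lrg1, a secreted glycoprotein gene of neutrophils and vessels chosen after its values were seen, ranged from 1.42 to 4.58 on the denervated side and from 1.40 to 3.95 on the contralateral side. Denervated array 2 was its highest, contralateral array 2 came next, and its difference was 0.03 ± 0.65.

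Regulators and signals of the lineage gave no call. Of 7 measured transcription factors of granulopoiesis, 5 were above 0, with a median of 0.17 that was 0.10 without denervated array 3 and -0.06 without denervated arrays 2 and 3. Cebpb differed by 0.33 ± 0.21, Cebpd by 0.17 ± 0.16 and Runx1, which also acts in skeletal and dental tissue, by -0.47 ± 0.22. Cebpb was higher in 5 of 5 mice, with limma's adjusted p of 0.804 and, with the mouse as a block, 0.355. Without denervated arrays 2 and 3 the Cebpb difference was 0.21. Of 17 ligand, adhesion and receptor genes of neutrophil recruitment, 11 were above 0. The median was 0.05, 0.03 without denervated array 3, 0.07 without denervated arrays 2 and 3, and 0.28 over the genes with a mean of at least 3. Cxcl12, the chemokine that holds neutrophils in marrow, had 8.02 ± 0.34 on the denervated side and 7.44 ± 0.31 on the contralateral side (SD, n = 5 each). It was higher in 5 of 5 mice, by 0.58 ± 0.18 with limma's adjusted p of 0.790. The adhesion gene Vcam1 differed by 0.47 ± 0.18, but by -0.05 and -0.08 in its dimmer probe sets (means 2.80 and 1.86). The growth factor gene Csf1 differed by 0.14 ± 0.19 and was higher in 4 of 5 mice. Cxcl1, a chemokine gene that attracts neutrophils, went the other way and was lower in 5 of 5 mice, at 3.46 ± 0.46 on the denervated side and 3.98 ± 0.55 on the contralateral side (SD, n = 5 each). Its difference was -0.52 ± 0.28, with limma's adjusted p of 0.791 and, with the mouse as a block, 0.415. Csf3, which encodes the ligand of CSF3R, did not exceed 0.71 in any array. Of 15 genes for receptors of these secreted proteins and of the acute phase, 10 were above 0 (median 0.04, -0.01 without denervated arrays 2 and 3, and 0.13 over the genes with a mean of at least 3). Bsg, a receptor gene for calprotectin, differed by -0.12 ± 0.08, Slc22a17, a receptor gene for LCN2, by 0.03 ± 0.21 and Stat3 by -0.14 ± 0.11.

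Outside the 10 genes, the profiles nearest to that of S100a9, which had the largest SD of the set, were ranked among 7918 genes with a mean of at least 4, a minimum that S100a9 itself, at 3.79, does not reach. In this ranking the root mean square distance of gene-centred values was 0.43 for Lpl (lipoprotein lipase), 0.59 for Mmp9 (gelatinase B, of neutrophils and osteoclasts) and 0.65 for Sfrp2, a secreted Wnt modulator. It was 0.70 for Flt4, a receptor gene of lymphatic vessels, 0.73 for Acp5, the acid phosphatase gene of osteoclasts, and 0.73 for Dpep1, a dipeptidase gene. A flat profile had a distance of 1.26 and the median gene 1.24. With no minimum mean, a ranking of 18184 genes added after the data were seen, Chil3 came first at 0.42, Ltbp2, a matrix protein gene, second at 0.43 and Lpl next at 0.43. Mmp9 was then at rank 6 and Sfrp2 at rank 11.

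Lpl had 4.77, 6.66, 7.31, 4.43 and 5.04 in the denervated incisors, against 5.62, 4.40, 4.57, 4.14 and 6.08 in the contralateral incisors. Mmp9 had 3.80, 5.31, 6.06, 4.19 and 4.52 on the denervated side and 5.05, 4.46, 3.51, 3.47 and 5.05 on the contralateral side. As with S100a9, the denervated arrays of mice 2 and 3 were highest and the contralateral arrays of mice 1 and 5 were above those of mice 2, 3 and 4. The differences were 0.68 ± 0.58 for Lpl, 0.47 ± 0.46 for Mmp9, 1.03 ± 0.66 for Sfrp2, 0.62 ± 0.39 for Flt4, 0.63 ± 0.39 for Acp5 and 0.46 ± 0.40 for Dpep1, and limma's adjusted p lay between 0.804 and 0.846. The dimmer probe sets of Lpl, Mmp9 and Dpep1 differed by 0.48, 0.49 and 0.66. That of Flt4, with a mean of 1.35, differed by -0.14.

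**Figure D3:**
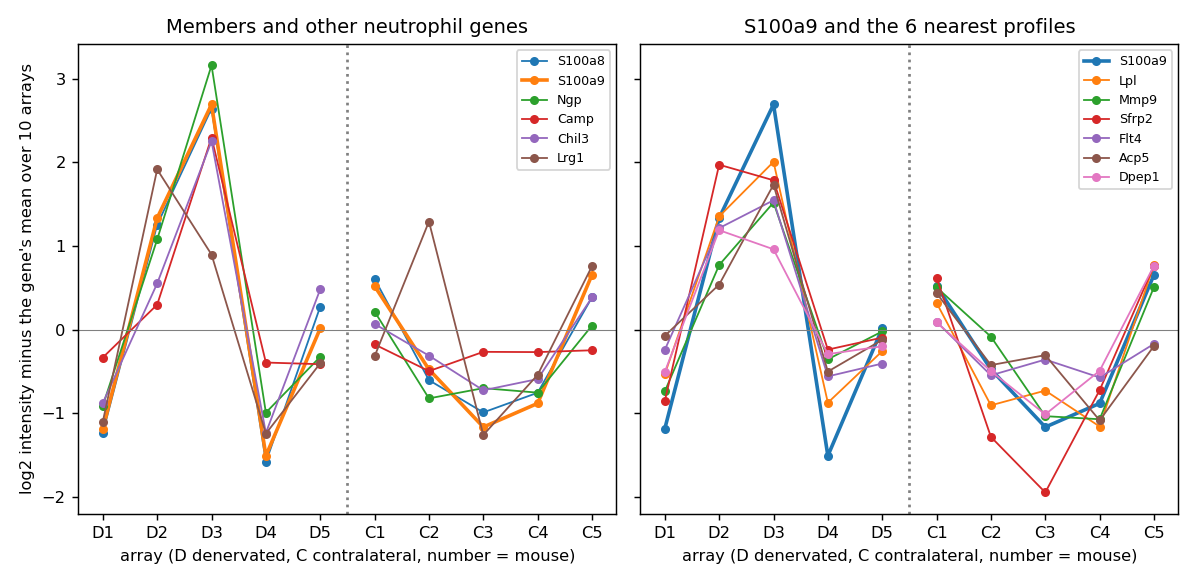
Log2 intensity minus the gene's mean over the 10 arrays (vertical axis) by array (horizontal axis; D denervated, C contralateral, number for the mouse). S100a8, S100a9, Ngp, Camp, Chil3 and Lrg1 are on the left, S100a9 and the 6 genes of mean at least 4 nearest to it on the right; D2 and D3 are the 2 highest arrays for S100a9 and for Lpl, and S100a8 and S100a9 nearly coincide.

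Markers of other cells also stood apart in the incisors of mice 2 and 3. In mice 1 to 5 the median within-mouse difference of the 9 neutrophil genes was -0.23, 0.63, 1.20, -0.13 and -0.11. For 13 macrophage and monocyte markers it was 0.21, 0.82, 0.89, 0.18 and 0.35, above 0 in 5 of 5 mice, where that of the neutrophil genes was above 0 in 2 of 5; this difference between the lists was not tested. For 8 smooth muscle and pericyte markers it was 0.11, 1.11, 0.56, 0.16 and -0.09, and for 8 endothelial markers -0.06, 0.47, 0.52, -0.17 and -0.09. For 6 Schwann cell markers it was -0.09, 2.41, 1.30, 0.01 and -0.19. Between the groups the median difference was 0.47 for the macrophage list, 0.42 for smooth muscle, 0.12 for endothelium and 0.61 for Schwann cells. Without denervated arrays 2 and 3 it was 0.24 for the macrophage list, 0.19 for smooth muscle, -0.08 for endothelium and -0.02 for Schwann cells. Csf1r, the receptor gene that macrophages depend on, averaged 8.69 ± 0.35 on the denervated and 8.39 ± 0.15 on the contralateral side, and the Schwann cell cadherin gene Cdh19 averaged 3.28 ± 1.39 on the denervated and 2.18 ± 0.74 on the contralateral side (SD, n = 5 each).

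For 11 dental epithelium markers the median difference was -1.91 in mouse 3, and the other 4 mice gave -0.27 to 0.12. Between the groups it was -0.43, against -0.08 without denervated array 3 and 0.01 without denervated arrays 2 and 3. The enamel matrix gene Ambn averaged 12.4 ± 1.54 on the denervated and 13.0 ± 0.05 on the contralateral side. The denervated incisor of mouse 3 thus held the highest values of 9 of 9 neutrophil genes, with Elane, Mpo and Csf3r below 2, beside low values of several epithelial markers. The epithelial differences in mouse 3 were uneven, from -8.77 for Enam to 0.39 for Klk4, with Epcam at -0.35 and Mmp20 at -0.39. For 8 osteoclast markers, Mmp9 and Acp5 among them, the median difference was 0.47 in mouse 3 and between -0.17 and 0.14 elsewhere, and between the groups 0.08, against 0.03 without denervated array 3 and -0.02 without denervated arrays 2 and 3. The summed linear intensity of the 9 neutrophil genes ranged from 26.9 to 291.3 on the denervated side and from 34.0 to 69.5 on the contralateral side. That of the macrophage list ranged from 1172 to 1870 on the denervated and from 1009 to 1261 on the contralateral side. That of the epithelial list ranged from 3326 to 21930 on the denervated and from 19986 to 22340 on the contralateral side. The part of these cells in the neutrophil values was not tested.

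Lymphocyte markers were low in every incisor. Of 9 B lineage and 8 T and natural killer cell markers 0 reached 2 in any array, their highest values being 1.47 and 1.77. Of 9 red cell markers 4 were above 0, with a median of -0.01. Alas2, the haem synthesis gene of red cell precursors, chosen after its values were seen, had 0.68, 1.82, 2.78, 1.28 and 1.58 on the denervated side and 1.56, 2.02, 1.45, 1.60 and 1.56 on the contralateral side. It was highest in denervated array 3 and lowest in denervated array 1, with a difference of -0.01 ± 0.31. For 7 megakaryocyte and platelet markers the median was 0.01, with 4 above 0 and 3 below, and 2 of the 7 had a mean of at least 2. The platelet factor gene Pf4, at 5.58 ± 0.58 on the denervated and 4.96 ± 0.28 on the contralateral side (SD, n = 5 each), had the largest difference of these, 0.63. In mice 1 to 5 the Pf4 difference was 0.53, 1.10, 1.14, -0.03 and 0.39, and which cells gave this signal was not tested. Gp9 was lower in 5 of 5 mice, with a difference of -0.10 ± 0.06, and stayed below 2 in every array. Of the mast cell and eosinophil list, only Kit among 11 markers reached 2 in any array, and other cells express Kit too.

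**Figure D4:**
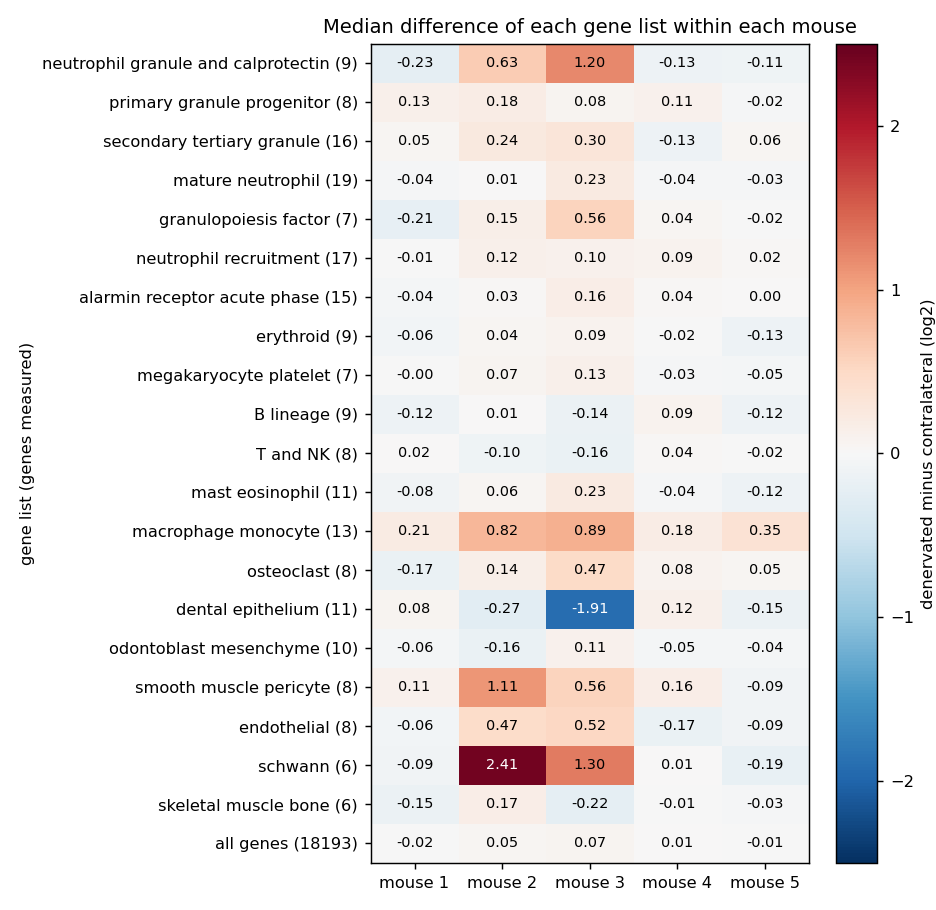
Median log2 difference, denervated minus contralateral (colour and printed value), of each gene list (rows, with the number of genes measured) in each mouse (columns). The neutrophil granule and calprotectin row is 0.63 in mouse 2 and 1.20 in mouse 3 and negative in mice 1, 4 and 5, beside rows of other cell types and all genes.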

How the data were processed

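Total RNA of 10 incisors was labelled with biotin and hybridised to oligonucleotide arrays, 1 array per incisor. The values deposited by the authors are log2 intensities per probe set; RMA, a method of background correction, between-array normalization and probe set summary, is named without a version in the submitters' processing notes, and which variant was used is not given in the sources used here. Their range, -0.16 to 13.2, is that of a log2 scale.

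Of 45101 probe sets, 64 controls were left out. Of the other 45037, 34945 name 1 gene symbol, 932 several and 9160 none; 34741 matched a RefSeq gene by Entrez identifier and 0 symbols changed. Each of 18193 genes is represented by the brightest of its probe sets, judged by the mean of the 10 arrays. Groups were compared with limma 3.58.1 (lmFit and eBayes, R 4.3.3), threshold 0.05 on the Benjamini-Hochberg adjusted p. Differences are denervated minus contralateral, with limma's standard error. Deviations from the group means correlated between 0.18 and 0.57 in the 5 pairs of equal number and between -0.41 and 0.22 in the 20 others, so equal numbers were taken as 1 mouse; the design text gives 5 mice. Intervals and p values are from the fit without the mouse. In simulated data on 18193 genes that fit recovered 54% of genes changed by 0.5 and 90% of those changed by 1 log2 unit. The changed genes were drawn only from brighter genes with a small SD, and the simulated noise was independent between arrays. The rates therefore do not hold for all genes. These rates cannot be carried over to S100a8, S100a9 and Ngp, whose standard errors were 0.72, 0.74 and 0.69. The median standard error was 0.10. Nor can they be carried over to genes below about 2, where differences are compressed.

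The genes, lists and alternatives were chosen with earlier results of these data known. Besides the 9 genes, the text names the 3 genes with the highest mean in each of 6 neutrophil-related lists, the 6 genes nearest to the one with the largest SD and, for cell type lists, some of the 2 genes with the highest mean. Markers named for a low level were chosen after their values were seen, as were Chil3, Lrg1, Alas2, Barx1, Kit, Itgb2, Ncf1, Cxcl1 and Ltbp2. So were Stfa3, Gp9, Enam, Klk4, Epcam and Mmp20. Alternatives covered the mouse as a block, the probe sets, filters on dim genes, scaling, array weights, the variance prior and left-out arrays. The number of arrays limits the precision. Figures were drawn with matplotlib.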

Additional observations from a re-analysis of the deposited data

Results flagged for a closer look

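Within each group of 5 arrays, the gap between the most extreme array and its nearest neighbour was set against the range of the group, with a critical value of 0.71 (Dixon). Of 72 gene and group combinations, for 36 named genes, 6 passed, and chance alone flags about 1 in 20. Denervated array 3 was high for Camp (gap over range 0.737, at 3.94), for Ltf (0.729, at 2.29) and for Mpo (0.769, at 1.87). Contralateral array 2 was low for Camp (0.712, at 1.15) and high for Alas2 (0.738, at 2.02). Contralateral array 3 was high for Csf3r (0.716, at 1.54). The values for Mpo and Csf3r and the low one for Camp lie below 2. S100a8, S100a9 and Ngp were not among those that passed.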

How the results depend on the processing

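Of 24 alternatives, 24 left 0 of the neutrophil genes they included past the threshold (lowest adjusted p 0.502). Not every alternative included all 9. The filter at a mean of at least 3 kept 2, S100a8 and S100a9, and the fit with values under 2 set to 2 left out Elane, Mpo and Csf3r. Over all genes 0 passed in 23 and 1 with the mouse as a replicate block and without mouse 4. With the replicate block alone 0 genes passed, and the differences of S100a8 and Ngp were 0.54 and 0.81 with adjusted p of 0.807 and 0.690; the block changed no call. The replacement of a gene's probe set by another could not be run for the 9 genes, which have 1 each.

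Directions turned as follows, and the cause was not tested. Without denervated arrays 2 and 3 the difference was -0.58 for S100a8, -0.62 for S100a9, -0.34 for Ngp, -0.089 for Camp, -0.13 for Ltf, -0.11 for Lcn2, -0.13 for Mpo and -0.029 for Csf3r. It was then -0.15 for Csf2rb, -0.087 for Cebpd, -0.23 for Slc22a17, -0.22 for Lpl, -0.14 for Mmp9, -0.092 for Flt4, -0.10 for Dpep1, -0.31 for Chil3 and -0.90 for Lrg1. With array weights it was -0.15 for S100a8, -0.14 for S100a9, -0.0058 for Ltf, -0.056 for Mpo, -0.038 for Slc22a17, -0.031 for Chil3 and -0.53 for Lrg1. With quantile normalization it was -0.039 for Slc22a17 and -0.0080 for Lrg1, and with values under 2 set to 2 it was 0.15 for Alas2.

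Leaving out 1 array moved the difference between -0.052 and 1.01 for S100a8, -0.067 and 0.98 for S100a9, -0.079 and 0.23 for Ltf, -0.10 and 0.12 for Mpo, -0.0019 and 0.15 for Csf3r, -0.085 and 0.20 for Slc22a17, -0.034 and 0.84 for Chil3, -0.45 and 0.35 for Lrg1, and -0.30 and 0.23 for Alas2, and 0 genes passed in each case. With the replicate block and without mouse 3 it was -0.23 for S100a8, -0.29 for S100a9, -0.077 for Ltf, -0.056 for Mpo, -0.12 for Slc22a17, -0.050 for Mmp9, -0.16 for Chil3 and -0.51 for Lrg1. It was -0.12 for Lrg1 without mouse 2, and 0.21, 0.039 and 0.069 for Alas2 without mice 1, 2 and 4. Low signal over background limits Elane, Mpo and Csf3r, which lie below 2 in every array.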
